A study of Mus musculus with 6 samples.

Results

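Type I interferon stimulated genes were measured in the livers of mice injected with vesicles of a colorectal cancer cell line. The gene list holds 41 mouse genes, among 37074 gene names on the array. Probes were taken by the gene name printed on the array, and all 41 genes had at least 1 probe, 73 in all. Of the 41 genes, 39 were tested because a probe of theirs stood well above background on 3 arrays or more, and these 39 did so on all 6. Oas1a and Oas1g did not reach that minimum and are described by their values.

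Both groups were nude mice, which have no thymus and so almost no mature T cells. Mice of the sEV group were given small extracellular vesicles (membrane-bound particles that cells shed) of SW620, a human colorectal cancer line. Injection was into the tail vein, 20 µg each time, 10 times over 21 days. Control mice received sterile PBS, a buffer, equally often. Each group had 5 mice, of which 3 livers were hybridised, 1 per single-colour Agilent array. The labels give neither age nor sex, and no group received vesicles of a non-cancer cell, so the effect of vesicles as such and that of SW620 vesicles cannot be told apart. Whole liver RNA was used, in which fewer cells of a type and less RNA per cell cannot be told apart. The array number limits the precision of every value.

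Type I interferons are secreted when cells sense foreign or misplaced nucleic acid. They bind a receptor of the chains IFNAR1 and IFNAR2, whose kinases JAK1 and TYK2 phosphorylate signal transducers, STAT2 among them. STAT2 and IRF9 are part of a complex that binds the interferon stimulated response element, or ISRE, and switches on antiviral genes. Interferon gamma acts through another motif, the gamma activated site or GAS, and IRF1 is one of its direct targets. In liver, hepatocytes, Kupffer cells and endothelial cells all respond to type I interferon, and many of the genes have a low constitutive level that depends on it.

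To show what the genes share in sequence, the promoters in the RefSeq table (build GRCm38.p6) were searched over the 250 bases before the annotated start. The table held a promoter for 29 of the 41 genes by symbol. Ifi27l2a, Mx2, Oas2, Dhx58, Usp18, Rtp4, Ifi27, Parp9, Oas1b, Parp14, Zbp1 and Mx1 were not matched. The ISRE core, searched as GAAA and a second GAAA with any 2 bases between them, on both strands (TTTC in reverse) and with overlapping matches counted, was present in 10 of the 29 (34.5%) and in 936 of all 27025 genes with a promoter (3.46%). The 10 were Bst2, Ddx60, Ifit1, Ifit3, Isg15, Oas1a, Oas1g, Oas3, Rsad2 and Stat2. Among the genes with a promoter, it was found in 4 of 7 that were lower in sEV livers, 1 of 2 that were higher and 3 of 18 that did not pass the test. The GAS motif was searched only as TTTC and GAAA with any 3 bases between them, which reads the same on both strands. That form was found in Irf1 alone of the 29 (3.45%), against 206 of the 27025 genes (0.762%). Shorter forms of the GAS were not searched, so the other promoters may still hold one. A match describes letters, not binding. The 160 bases before the start are given 5′ to 3′ in the direction of the gene for those genes that passed the test and had a match, with the ISRE core in capitals, or for Irf1 the GAS motif.
Isg15, chr4:156200819-156200978, minus strand: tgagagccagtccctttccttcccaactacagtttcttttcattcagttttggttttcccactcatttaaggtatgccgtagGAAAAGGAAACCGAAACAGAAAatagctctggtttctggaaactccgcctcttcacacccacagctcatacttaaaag
Ifit1, chr19:34640729-34640888, plus strand: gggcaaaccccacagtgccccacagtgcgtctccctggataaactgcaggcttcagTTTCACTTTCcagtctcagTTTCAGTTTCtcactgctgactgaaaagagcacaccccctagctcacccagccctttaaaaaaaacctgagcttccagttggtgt
Ifit3, chr19:34583369-34583528, plus strand: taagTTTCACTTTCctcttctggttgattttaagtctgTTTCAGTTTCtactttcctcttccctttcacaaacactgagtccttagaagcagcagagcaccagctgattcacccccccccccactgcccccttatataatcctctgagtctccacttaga
Rsad2, chr12:26456453-26456612, minus strand: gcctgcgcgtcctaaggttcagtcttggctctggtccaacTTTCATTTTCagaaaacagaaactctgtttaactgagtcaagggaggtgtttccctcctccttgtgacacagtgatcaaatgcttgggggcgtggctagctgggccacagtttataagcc
Oas3, chr5:120777660-120777819, minus strand: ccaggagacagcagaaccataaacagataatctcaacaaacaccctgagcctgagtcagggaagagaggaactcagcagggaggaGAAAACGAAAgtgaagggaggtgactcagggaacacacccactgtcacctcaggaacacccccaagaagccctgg
Irf1, chr11:53769854-53770013, plus strand: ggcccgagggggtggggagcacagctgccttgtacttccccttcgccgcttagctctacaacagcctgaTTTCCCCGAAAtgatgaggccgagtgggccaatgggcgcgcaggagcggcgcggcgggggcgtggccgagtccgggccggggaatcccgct
In Isg15 the capitals hold 3 overlapping cores, which begin 78, 72 and 66 bases before the start. Ifit1 and Ifit3 each have 2 separate cores, both in the reverse direction, and Rsad2 has 1 such core, 120 bases before its start. In Oas3, a gene that was higher, the single core is in the forward direction.

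The antiviral genes Rsad2, Ifit1 and Isg15 fell in sEV livers by 1.41, 1.19 and 1.15 on the log2 scale, while Irf1, a transcription factor, rose by 0.86. Of the 39 tested genes, 8 fell and 3 rose, which is 28.2%, against 16.9% of all 19449 genes tested (limma with Benjamini-Hochberg adjustment over all genes, threshold 0.05). By direction, 8.11% of all genes were lower and 8.82% higher. The 28 genes that did not pass had log2 fold changes from -0.41 to 0.78. Negative values were found for 27 of 39 (69.2%), against 47.1% of all genes, and the median log2 fold change was -0.14 against 0.02 over all genes. The 3 sEV livers did not overlap the 3 control livers for 20 of the 39 genes (51.3%), against 40.8% of all genes. When arrays were scaled to their median signal, the 11 called genes of the list kept their direction, and Oas3 lost its call. Of all genes called on the array, 40.6% were then higher, in place of 52.1%.

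Values throughout are normalised log2 signals, the log2 of the processed signal minus that of the array's 75th percentile, and ± marks the standard error of a log2 fold change in limma unless SD is stated. Before scaling, the 75th percentile lay between 440.1 and 506.4 for the controls and between 401.5 and 424.0 for the sEV livers, and 49.9% to 54.7% of the 59305 spots outside the controls were well above background. All arrays lay on 1 slide. The 3 controls and sEV 1 were in slide row 1, and sEV 2 and sEV 3 were in the other row. When slide row was a block in the fit, 716 genes passed (3.68%), and within row 1 alone 608 passed (3.13%). Both of these fits take the contrast from sEV 1 alone. The fit within row 1 has a single sEV array, its spread comes from the controls, and sEV 1 is assumed to vary like them.

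**Figure D1:**
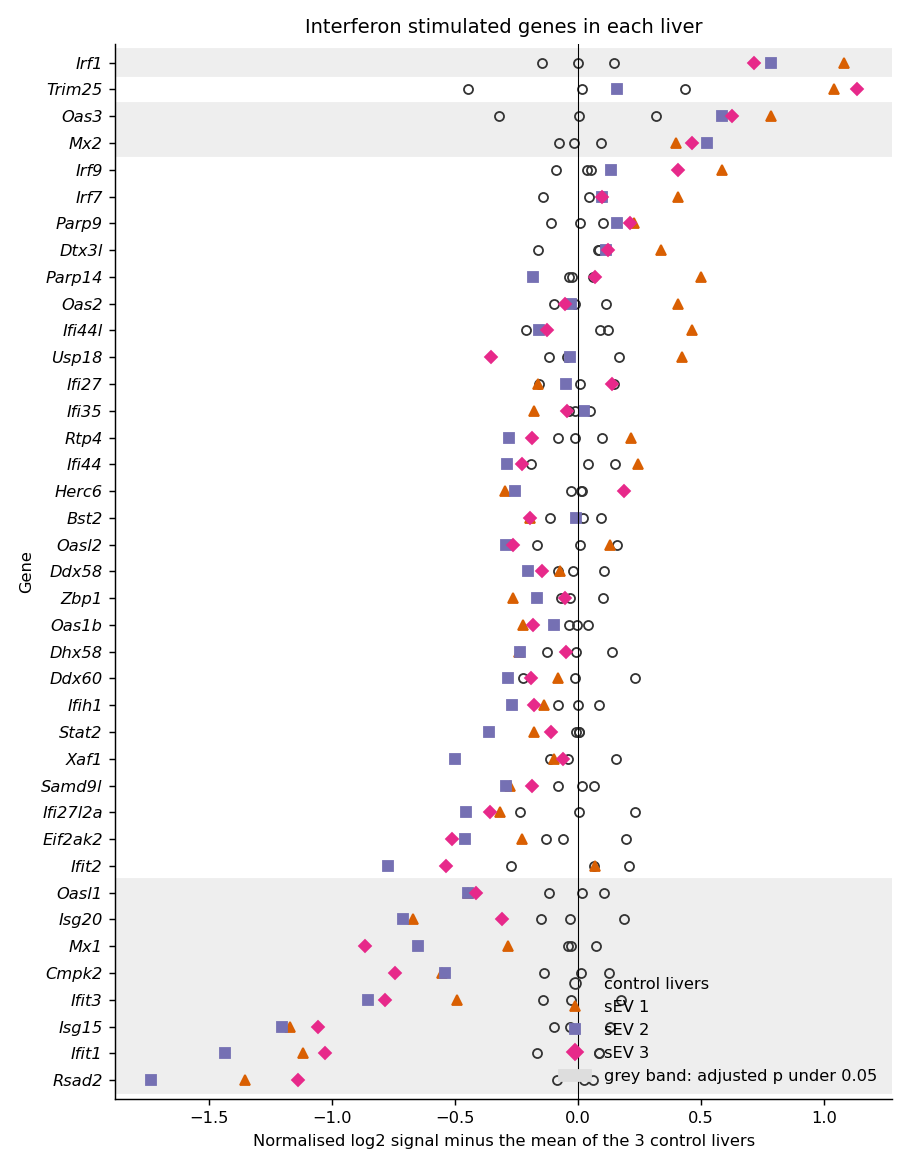
Normalised log2 signal of each liver minus the mean of the 3 control livers for the 39 tested genes, ordered by log2 fold change, with circles for control livers, coloured symbols for the sEV livers and grey bands for genes with a limma adjusted p under 0.05. The 8 lower genes lie at the bottom and the 3 higher ones near the top, and between them sEV 1 often lies to the right of sEV 2 and sEV 3.

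Markers of the cell types that liver can hold were measured on the same arrays. Of 12 Kupffer cell markers, 6 were higher and 0 lower, and their summed level on the linear scale relative to the 75th percentile was 102.8 to 138.3 in control and 150.9 to 164.9 in sEV livers. Of 10 tested conventional dendritic cell markers, 4 were higher, with sums of 20.1 to 23.5 and 47.2 to 69.9. These 4, Cd74, H2-Ab1, H2-Eb1 and Ciita, are class II presentation genes that other cells also express, and they made up 19.4 to 22.5 and 46.2 to 68.8 of the sums. The lineage markers Clec9a (0.10) and Zbtb46 (0.14) did not pass, nor did Flt3, Itgax, Batf3 or Cd209a, and Xcr1 was too dim to test. Of 10 monocyte markers, 5 were higher and 3 lower (207.8 to 291.9 and 362 to 410.7). That sum rests on Ms4a4c (150.5 to 239.8 and 318.6 to 370.6), which was higher. The other 9 summed to 52.1 to 57.4 and 40.2 to 43.5, mostly from Ly6c2 (-0.57), which was lower. Cx3cr1 (-2.17) and Itgam (-0.80) were also lower, while Chil3 (2.51), Nr4a1 (0.84), Fcgr1 (0.67) and Ccr2 (0.52) were higher. Plac8 (0.48) and Spn (0.01) did not pass. Of 11 neutrophil markers, 5 were higher (101.6 to 124.7 and 143.9 to 156.4). They were Mpo (2.02), Ngp (1.82), Elane (1.31), S100a8 (1.17) and S100a9 (1.11). Csf3r (-0.90), the brightest of these markers in controls, and Ly6g (-0.08) did not pass. Camp, Ltf, Cxcr2 and Retnlg gave 0.57 to 1.18 without passing. For plasmacytoid dendritic cells, which secrete large amounts of type I interferon, 8 of 12 markers were tested, 1 was higher and 2 lower, and the sums overlapped, at 80.9 to 93.6 and 69.7 to 102.5. The higher marker was Lag3 (1.14), and the lower ones were Spib (-1.58) and Tcf4 (-0.37). These sums rest mostly on Siglech, a surface receptor of these cells, which had a log2 fold change of 0.01. Ccr9, Cox6a2, Klra17 and Runx2 were too dim to test. All 10 markers of dividing cells were lower, with sums of 30.9 to 38.6 and 1.81 to 2.52. Of 10 stellate cell markers, 4 were lower (73.9 to 106.1 and 54.0 to 75.3), among them Col1a1 (-2.05) and Col3a1 (-1.89). Of 8 tested erythroid markers, 4 were lower (583.6 to 635.9 and 199.9 to 650.5), among them Ahsp (-3.59). Of 7 tested B cell markers, 1 was higher and 3 lower (1.48 to 1.68 and 1.27 to 1.55). Of 8 tested T and NK cell markers, 2 were higher and 1 lower, and the sums did not overlap (16.7 to 20.8 and 15.1 to 15.9). That sum rests mostly on Cd4 (-0.48), the lower marker. Nkg7 (1.29) and Ncr1 (0.65) were higher, and the other tested markers gave 0.18 to 0.51 without passing. Of 10 sinusoidal endothelial markers, 1 was lower (42.7 to 65.0 and 42.7 to 55.2). The hepatocyte markers were bright in all livers, at sums of 4310 to 4783 and 4925 to 5758, and 3 of 12 were higher. The part of these cell markers in the interferon gene results was not tested.

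Among the transcription factors of the list, Irf1 rose and the other members of the group did not pass. Irf1 activates antiviral and antigen presentation genes. Its signal was 2.89, 3.03 and 3.18 in the control livers and 4.11, 3.82 and 3.75 in the sEV livers. All sEV livers were above all controls, by 0.86 ± 0.13, a 1.81-fold difference (limma adjusted p = 0.0117). The second Irf1 probe gave 0.77 (adjusted p = 0.00731), and within slide row 1 the difference was 1.08. Its call held with each of the 6 arrays left out (highest adjusted p 0.0442) and ended only without the filter on dim probes (0.0532).

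Stat2 and Irf9, which encode parts of the complex that binds the ISRE, had log2 fold changes of opposite sign and did not pass the test. Stat2 was nearly constant in controls, at 3.49, 3.48 and 3.47, and was 3.30, 3.12 and 3.37 in sEV livers, so that the groups did not overlap (-0.22 ± 0.09, adjusted p = 0.156). Its dimmer probe gave 0.17. Irf9 was 2.72, 2.60 and 2.74 in controls and 3.27, 2.82 and 3.09 in sEV livers, again without overlap (0.38 ± 0.13, adjusted p = 0.0984), and its other probe gave 0.43. Irf7, the master regulator of interferon alpha genes, was 5.21, 5.26 and 5.02 in controls and 5.57, 5.26 and 5.26 in sEV livers, which overlap (0.20 ± 0.12, adjusted p = 0.302). The other Irf7 probe gave a larger difference, 0.58 (adjusted p = 0.0209 with each probe fitted on its own, where 14.1% of 28763 probes passed), so that the call for Irf7 depends on the probe.

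All 6 nucleic acid sensors of the list had negative log2 fold changes, from -0.40 to -0.14, and 0 of them passed. The largest was that of Eif2ak2, which encodes PKR, a kinase that stops translation on double-stranded RNA. Its signal was 1.15, 1.47 and 1.21 in controls and 1.05, 0.82 and 0.76 in sEV livers, without overlap (-0.40 ± 0.13, adjusted p = 0.0793). It passed under normexp background correction (adjusted p = 0.0361), with a trended and robust variance model (0.0444) and with array weights (0.0491). The cytosolic RNA receptors Ifih1 (MDA5) and Ddx58 (RIG-I) gave -0.20 ± 0.09 and -0.14 ± 0.09, and both had all sEV values within 0.3 of their control mean. Their regulator Dhx58 (LGP2) gave -0.18 ± 0.11. Ddx60, a helicase, gave -0.19 ± 0.13 and Zbp1, a sensor of Z-form nucleic acid, -0.16 ± 0.10. Of the other probes of these sensors, 1 for Ddx58 (0.17) and 1 for Zbp1 (0.11) had the opposite sign.

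Isg15 was the called gene with the smallest adjusted p and the one whose call held in all 18 alternative settings. It encodes a ubiquitin-like protein that is attached to other proteins during an interferon response. Its signal was 4.30, 4.53 and 4.37 in controls and 3.23, 3.19 and 3.34 in sEV livers. The 3 sEV livers lay close together and far below every control, with a fall of 1.15 ± 0.10, a 2.21-fold difference (limma adjusted p = 0.00179). Within slide row 1 the difference was -1.17. Over the alternatives it ranged from -1.20 to -1.08.

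Isg15 was the only gene of its group that passed. The 6 others, for enzymes that handle ISG15 and ubiquitin, did not. Usp18, the protease that removes ISG15 and also dampens IFNAR2 signalling, was 1.80, 2.01 and 1.72 in controls and 2.27, 1.81 and 1.49 in sEV livers. Its sEV values straddled the controls, with a log2 fold change of 0.01 ± 0.20 (adjusted p = 0.975), and its sign changed in 7 of 18 settings. Herc6, the main ISG15 ligase in mice, gave -0.12 ± 0.14, with sEV 3 at -2.71 and the other livers between -3.20 and -2.89. Dtx3l and Parp9, which work together as a ubiquitin ligase complex, gave 0.19 ± 0.11 and 0.20 ± 0.09. Parp14, an ADP-ribosyltransferase, was 2.63, 2.71 and 2.61 in controls and 3.15, 2.47 and 2.72 in sEV livers, with sEV 1 highest (0.13 ± 0.17).

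Trim25, the ligase that activates RIG-I, gave opposite answers on its bright probes. The brightest was 6.17, 6.64 and 7.05 in controls and 7.66, 6.78 and 7.75 in sEV livers, which overlap (0.78 ± 0.33, adjusted p = 0.152). The next was 5.17, 5.35 and 5.12 in controls and 4.58, 4.74 and 4.93 in sEV livers, with all sEV livers lower (-0.47, adjusted p = 0.0516). The brightest probe was designed on the transcript BC034276 and the other on a RefSeq transcript of Trim25, per the annotation in the array files. No direction can be given for Trim25.

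The IFIT genes were lower in part, with Ifit1 and Ifit3 past the threshold and Ifit2 not. The protein of Ifit1 binds viral RNA that lacks the cap methylation of host transcripts. Ifit1 was 0.14, 0.14 and -0.11 in controls and -1.06, -1.38 and -0.97 in sEV livers. All sEV livers lay well below all controls, with a fall of 1.19 ± 0.14, a 2.29-fold difference (limma adjusted p = 0.00504). The difference was -1.12 within slide row 1 and the same with row as a block, where the call ended (0.0539). Ifit3 was 1.08, 1.28 and 0.96 in controls and 0.62, 0.25 and 0.32 in sEV livers, without overlap (-0.71 ± 0.13, adjusted p = 0.0208). Ifit3 did not pass without control 1 (0.0629), control 2 (0.0615), sEV 2 (0.0592) or sEV 3 (0.0644), and within slide row 1 it gave -0.49 (0.201). Ifit2 was -1.89, -1.75 and -2.23 in controls and -1.89, -2.73 and -2.49 in sEV livers (-0.41 ± 0.24, adjusted p = 0.277). In Ifit2 only sEV 2 and sEV 3 were below the controls, and sEV 1 was level with control 1.

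These neighbouring genes lie on chromosome 19, with mm9 probe positions of chr19:34650244-34650303 for Ifit2, chr19:34663105-34663164 for Ifit3 and chr19:34723827-34723886 for Ifit1. Among the IFI genes 0 of 5 passed. Ifi27l2a, an interferon induced membrane protein gene, gave the largest value of them, -0.38 ± 0.13, at 4.26, 4.03 and 3.79 in controls and 3.71, 3.57 and 3.67 in sEV livers (adjusted p = 0.0998). Ifi44 and its paralogue Ifi44l gave -0.09 ± 0.17 and 0.06 ± 0.19. In Ifi44l sEV 1 was the highest liver at -0.68, while sEV 2 at -1.30 and sEV 3 at -1.27 fell among the controls at -1.35 to -1.02. Ifi27 and Ifi35 gave -0.03 ± 0.12 and -0.07 ± 0.09.

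The oligoadenylate synthetases make the second messenger that activates the RNA-cleaving enzyme RNase L. Of 5 tested members of the family, Oas3 was higher, Oasl1 was lower and the other 3 did not pass. Oas3 was -3.33, -3.01 and -3.65 in controls and -2.55, -2.74 and -2.71 in sEV livers. The groups did not overlap, with a rise of 0.67 ± 0.17 (limma adjusted p = 0.0442). This rise passed in 6 of 18 alternatives and not under median scaling (0.61, adjusted p = 0.0681), quantile normalization (0.0563) or with any one array left out other than control 2 (0.0874 to 0.118). Oasl1, which encodes a relative that lacks synthetase activity and represses Irf7 translation, was 1.66, 1.89 and 1.80 in controls and 1.34, 1.34 and 1.37 in sEV livers. The sEV values were nearly equal and below all controls (-0.44 ± 0.09, adjusted p = 0.0238). The other Oasl1 probe gave -0.24 (0.171), and the call ended with any one array left out other than control 1 (0.051 to 0.0774) and within slide row 1 (-0.45, 0.189). Oas2 gave 0.11 ± 0.15, Oasl2 -0.14 ± 0.15 and Oas1b -0.17 ± 0.08. In Oas1b, whose brightest probe was 5.41, 5.49 and 5.44 in controls and 5.22, 5.35 and 5.26 in sEV livers, the second probe gave 0.03.

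The antiviral effector Rsad2, which encodes viperin, an enzyme that makes a chain-terminating nucleotide, had the largest fall of the list. Its signal was 0.75, 0.79 and 0.64 in controls and -0.63, -1.01 and -0.41 in sEV livers. Every sEV liver was more than 1 log2 unit below the control mean, and the fall was 1.41 ± 0.16, a 2.66-fold difference (limma adjusted p = 0.00482). The second Rsad2 probe was well above background on the 3 control arrays and on 0 sEV arrays. It passed the filter through the controls alone, so it is not taken as support for the fall. For the brighter probe, the difference within slide row 1 was -1.35, and with row as a block the call ended at 0.0501. Cmpk2, a nucleotide kinase gene next to Rsad2, was -0.49, -0.60 and -0.75 in controls and -1.17, -1.15 and -1.36 in sEV livers, without overlap (-0.61 ± 0.11, adjusted p = 0.0172). The mm9 probe positions of the pair are chr12:27127859-27127918 for Rsad2 and chr12:27164134-27164193 for Cmpk2. Cmpk2 did not pass without control 1 (0.0528), control 2 (0.0562) or sEV 3 (0.05005), and gave -0.55 within slide row 1 (0.149).

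Isg20, an exonuclease gene, was 1.55, 1.43 and 1.77 in controls and 0.91, 0.87 and 1.27 in sEV livers, with every sEV liver below every control (-0.56 ± 0.15, limma adjusted p = 0.0458). The other Isg20 probe gave -0.48 (0.108), and leaving out any one array other than sEV 3 ended the call (0.0735 to 0.126), as did restriction to slide row 1 (-0.67, 0.13). Of the last 4 effectors 0 passed. Samd9l, a translation inhibitor, gave -0.25 ± 0.08 without overlap of the groups (adjusted p = 0.0862). Xaf1, a pro-apoptotic gene, gave -0.22 ± 0.15, Bst2, which encodes the virus tether tetherin, -0.13 ± 0.10, and Rtp4 -0.08 ± 0.15.

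Mx1 and Mx2 encode related dynamin-like GTPases that block virus replication, and they moved in opposite directions. Mx1 was -1.77, -1.88 and -1.87 in controls and -2.12, -2.49 and -2.71 in sEV livers, with all sEV livers lower (-0.60 ± 0.15, limma adjusted p = 0.0453). Mx2 was 0.65, 0.71 and 0.83 in controls and 1.13, 1.26 and 1.19 in sEV livers, with all sEV livers higher (0.46 ± 0.09, adjusted p = 0.0201). Their mm9 probe positions are chr16:97668644-97668703 for Mx1 and chr16:97782327-97782386 for Mx2. Mx1 did not pass with any one array left out other than sEV 1 (0.0984 to 0.131), and within slide row 1 its difference was -0.28 (0.296). Mx2 did not pass without control 1, control 2, sEV 2 or sEV 3 (0.0611 to 0.062), and within row 1 it gave 0.40 (0.202). Many laboratory mouse strains carry inactivating changes in the Mx genes, and these RNA levels do not give the level of active protein.

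**Figure D2:**
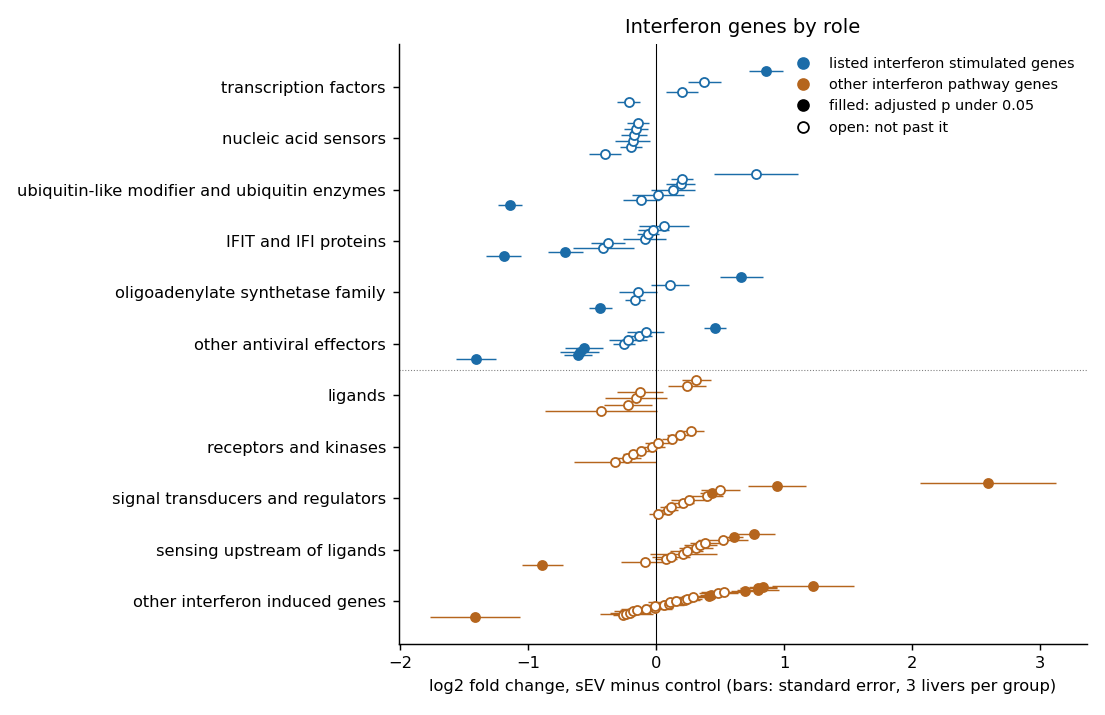
Log2 fold change, sEV minus control, with standard error bars (3 livers per group), for the tested listed genes by role above the dotted line and for the other interferon pathway genes below it, with filled points for a limma adjusted p under 0.05. The filled points of the listed genes lie mostly on the left, down to -1.41 for Rsad2, and those of the other pathway genes mostly on the right, up to 2.59 for Socs3.

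The sEV livers differed among themselves on these genes. The first, sEV 1, was the highest of the 3 for 21 of 39 genes (53.8%), against 34.5% of all genes. It was above the control mean for 16 of the 39, and the mean of sEV 2 and sEV 3 was so for 9. For 9 genes the difference from the control mean had opposite signs in sEV 1 and in the mean of the other sEV livers. They were Usp18, Oas2, Ifit2, Ifi44, Ifi44l, Oasl2, Rtp4 and Parp14, which were above the control mean in sEV 1, and Ifi27, which was below it there. For Usp18 the differences from the control mean were 0.42 in sEV 1, -0.03 in sEV 2 and -0.36 in sEV 3. Rtp4 gave 0.22, -0.28 and -0.19 in the same order. For the called genes, selection favours agreement between livers. Among them sEV 1 was nearest to the controls for Mx1 (-0.29, against -0.65 and -0.87), Ifit3 (-0.49, against -0.85 and -0.79) and Mx2 (0.40, against 0.53 and 0.46). The nearest liver was sEV 3 for Rsad2, Ifit1, Isg15, Isg20, Oasl1 and Irf1, and sEV 2 for Oas3 and Cmpk2. Because sEV 1 was also the only sEV array in slide row 1, liver and slide row cannot be told apart where sEV 1 differed from the other sEV livers.

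**Figure D3:**
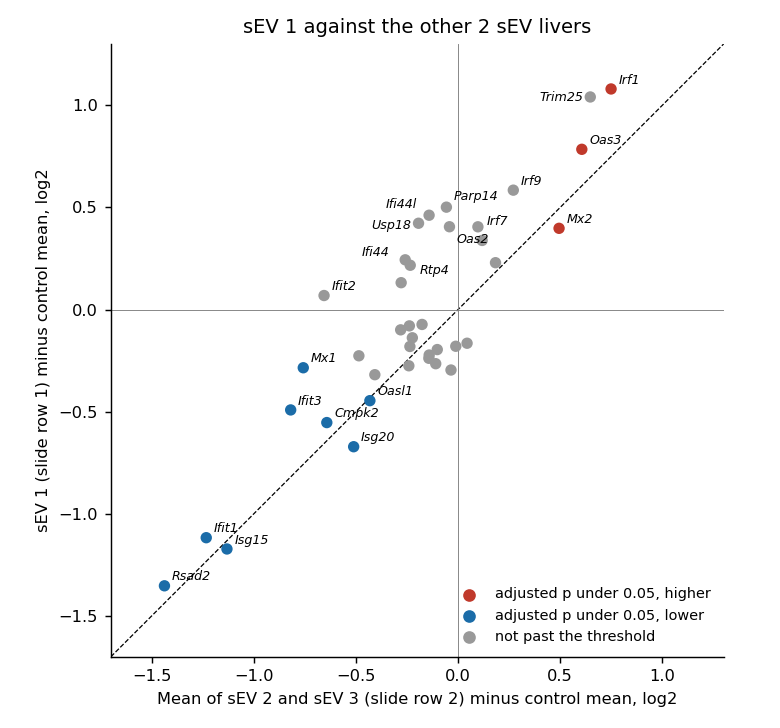
For each of the 39 tested genes, the difference of sEV 1 from the control mean (vertical axis, log2) against that of the mean of sEV 2 and sEV 3 (horizontal axis, log2), with the dashed line marking equality and colours marking limma adjusted p under 0.05. Rsad2, Isg15 and Ifit1 lie near the line at the lower left, and Usp18, Ifi44l and Rtp4 lie in the upper left quadrant.

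Oas1a and Oas1g, the listed genes that were not tested, were well above background in 1 control and 1 sEV liver only. Oas1a, which encodes a catalytically active synthetase, was 2.06 in control 1 and 2.37 in sEV 1. In the other 4 livers it was -6.57 and -7.06 (control 2 and control 3) and -6.47 and -6.29 (sEV 2 and sEV 3), none of them well above background. Oas1g was -3.50 in control 1 and -3.28 in sEV 1 and between -6.89 and -6.13 in the other livers. The neighbouring gene Oas1f, which is not on the list and is named after its values were seen, had the same livers bright. The mm9 probe positions are chr5:121346735-121346794 for Oas1a and chr5:121332000-121332059 for Oas1g. Control 1 and sEV 1 were picked for a count after these values were seen, and no other pair of arrays was counted. On both, 5 of 56605 probes were above the other 4 arrays by more than 3 log2 units, and 0 probes were below by as much. Of the 5, 2 were in Oas1 genes, namely Oas1a and Oas1f, while Oas1g fell short of that gap. Of 139 probes well above background on control 1 and sEV 1 alone, 3 were in Oas1 genes. The pattern crosses the treatment groups, and no difference between control and sEV livers can be read from these genes. Oas1b, on the same chromosome, was bright in all 6 livers. The promoters of Oas1a and Oas1g are shown because the genes share this pattern, with the overlapping ISRE cores in capitals, in build GRCm38.p6.
Oas1a, chr5:120907526-120907685, minus strand: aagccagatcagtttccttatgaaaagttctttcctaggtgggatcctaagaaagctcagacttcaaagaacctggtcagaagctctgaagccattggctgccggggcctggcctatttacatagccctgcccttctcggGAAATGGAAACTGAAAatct
Oas1g, chr5:120887614-120887773, minus strand: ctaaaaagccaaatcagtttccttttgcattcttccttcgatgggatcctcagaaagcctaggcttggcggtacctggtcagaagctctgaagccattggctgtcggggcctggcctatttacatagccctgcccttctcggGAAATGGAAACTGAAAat
The capitals read the same in both, and begin 20 bases before the start in Oas1a and 18 in Oas1g.

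**Figure D4:**
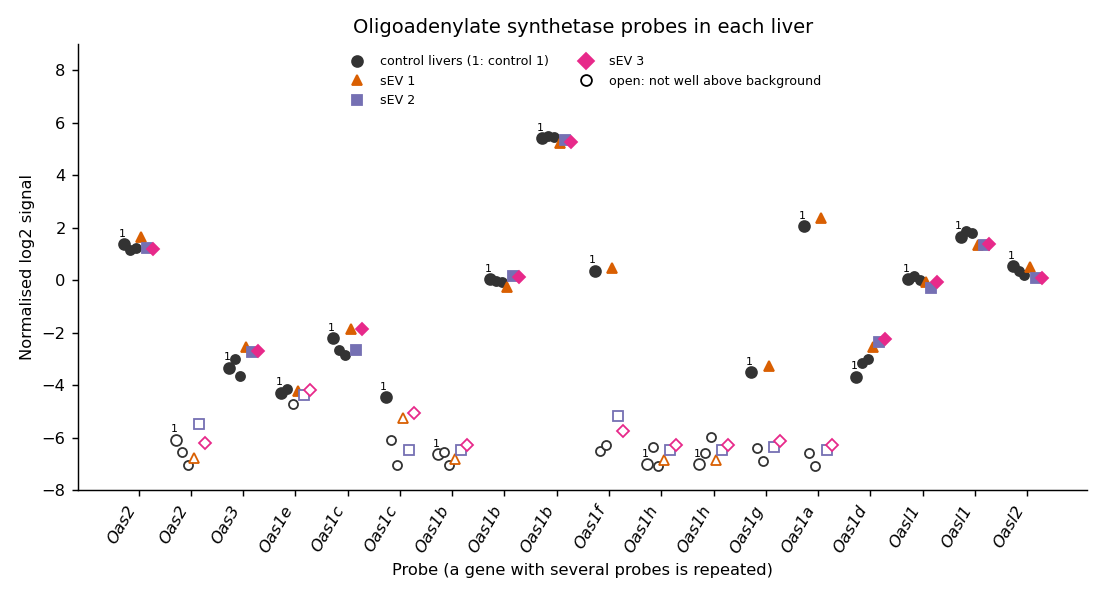
Normalised log2 signal of every probe of the oligoadenylate synthetase genes in each liver, with control 1 marked by a 1, and open symbols where the probe was not well above background. Oas1f, Oas1g and Oas1a are filled in control 1 and sEV 1 only, with Oas1g dim there at -3.50 and -3.28. The brightest Oas1b probe lies between 5.22 and 5.49 in all livers.

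The rest of the interferon pathway was taken as a list of 79 other genes, of which 62 were tested, 12 were higher, 2 were lower and 48 did not pass (22.6% called against 16.9% of all genes). The median log2 fold change was 0.17. Of 20 listed interferon genes, 17 were on the array, 10 of them (including Ifnb1 and Ifng) were not well above background on any array, 6 were tested and 0 passed. Of the 9 receptor chains and kinases 0 passed. Ifnar1 gave 0.02 ± 0.11 and Ifnar2 0.27 ± 0.10, while the kinases Jak1 and Tyk2 gave 0.12 ± 0.08 and -0.12 ± 0.08. Unadjusted p was under 0.05 for 15 of the 39 listed genes and 24 of the 62 pathway genes (38.5% and 38.7%), near the 33.6% of all genes.

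Among the regulators of the response, Irf2, an antagonist of IRF1, was higher by 0.43 ± 0.09, a call that ended with any one array left out (0.051 to 0.0782) and with slide row as a block (0.131). The value depends on the probe, since the dimmer Irf2 probe gave -0.13 and the mean of both 0.15 (adjusted p = 0.607). Socs3, which encodes a suppressor of cytokine signals, was 0.22, 0.37 and 0.95 in controls and 1.89, 3.99 and 3.44 in sEV livers, with sEV 1 the lowest of the sEV livers (2.59 ± 0.53, limma adjusted p = 0.0249, and 1.38 with slide row as a block, where the adjusted p was 0.101). The call of Socs3 ended with any one array left out other than sEV 1 (0.0518 to 0.0863). Its relative Socs1, which restrains interferon receptors, gave 0.50 ± 0.15 (adjusted p = 0.0697).

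Of the genes that sense nucleic acids upstream of interferon, Unc93b1, which carries Toll-like receptors to endosomes, rose by 0.60 ± 0.08 (limma adjusted p = 0.00665). Myd88, the adaptor of those receptors, rose by 0.76 ± 0.16. Mb21d1, which encodes the DNA sensor cGAS, fell by 0.89 ± 0.16 (adjusted p = 0.0188), from -1.24, -1.71 and -1.72 in controls to -2.30, -2.44 and -2.61 in sEV livers. Its partner Tmem173, which encodes STING, gave 0.31 ± 0.13 and did not pass. Myd88 did not pass without any one control or sEV 2 (0.062 to 0.0899), nor Mb21d1 without sEV 2 or sEV 3 (0.0522 to 0.0558). With slide row as a block the calls of Unc93b1 (0.0634), Myd88 (0.205) and Mb21d1 (0.147) ended.

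Among the other interferon induced genes, 4 genes of antigen processing and 2 of 5 GTPase genes were higher, while the chemokine Cxcl10 was lower. The GTPase genes that did not pass were Irgm1 (0.53 ± 0.18), Iigp1 (0.24 ± 0.12) and Gbp3 (-0.08 ± 0.20). The peptide transporter genes Tap1 and Tap2 rose by 0.79 ± 0.16 and 0.41 ± 0.10, and the immunoproteasome genes Psmb9 and Psmb8 by 0.69 ± 0.11 and 0.42 ± 0.08. Gbp2, a guanylate-binding protein gene, was 0.24, 0.27 and 0.20 in controls and 1.28, 0.97 and 0.95 in sEV livers (0.83 ± 0.11, limma adjusted p = 0.0078). Igtp, an immunity-related GTPase gene, was 4.50, 4.57 and 4.83 in controls and 6.59, 5.69 and 5.30 in sEV livers, with sEV 1 highest (1.23 ± 0.32, adjusted p = 0.0472). Ifi205, a DNA-binding protein gene, rose by 0.80 ± 0.15. Cxcl10 was 0.22, 0.26 and 0.14 in controls and -0.34, -1.61 and -1.68 in sEV livers, all below the controls but with sEV 1 nearest to them (-1.42 ± 0.35, adjusted p = 0.0417, and -0.55 with slide row as a block, where the adjusted p was 0.0749). With each array left out in turn, Unc93b1, Psmb9 and Gbp2 stayed past the threshold each time, and the other 11 called pathway genes did not on at least 1 occasion. Of the genes of this group, Igtp (0.0911 to 0.137) and Tap1 (0.051 to 0.0797) lost the call without any one control or sEV 2, and Ifi205 (0.0517 to 0.0652) without any one control. Tap2 (0.0748 to 0.114) lost it without any array other than sEV 3, Psmb8 (0.0562 to 0.0664) without control 2, control 3, sEV 2 or sEV 3, and Cxcl10 (0.0986 to 0.117) without any array other than sEV 1. With slide row as a block the calls of Psmb9 (0.0886), Psmb8 (0.14) and Tap2 (0.132) ended as well, and those of Gbp2, Igtp, Tap1 and Ifi205 held.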

How the data were processed

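The members and gene lists were chosen with earlier results of these data known. Per the submitters' processing notes, signals come from Agilent Feature Extraction, version 10.7.1.1. Processed, mean and background signals are intensity values in the deposited scanner files, and the processed one had background subtracted per the file headers. The authors' deposited value table, in log2 units, served as an alternative, with its making not given in the sources used here. For the main values, log2 processed signal was scaled to the 75th percentile of its array. Control and flagged spots (91 to 171 per array) were left out, and no spot was saturated. Probes well above background on 3 of 6 arrays were kept, and the brightest stood for its gene name. Groups came from the treatment label. The comparison used limma 3.58.1 (lmFit, eBayes; R 4.3.3), tested on simulated data, with Benjamini-Hochberg adjustment over all 19449 genes. The p-values measure the spread between 3 livers per group, where an exact test cannot go below 0.1. Deviations of arrays sharing a number correlated at 0.018, 0.156 and 0.021, so the numbers were not taken as pairs. Every listed gene was accounted for, and pathway genes past the threshold were named together with Ifnar1, Ifnar2, Jak1 and Tyk2, except 1 that is counted but not reported here by name. Individual marker genes of other cell types were named after their values were seen. Alternatives changed background, scaling, filter, probes, variance model, weights, slide row and arrays. Fits of each probe on its own were added after the data were seen. Figures used matplotlib 3.10.9.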

Additional observations from a re-analysis of the deposited data

How the results depend on the processing

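All 11 called genes kept their direction in all 18 alternative settings, while their calls varied. Isg15 passed in 18 settings, Irf1, Ifit1 and Rsad2 in 17, and Oas3 in 6. With no filter on dim probes (37069 gene names tested) 801 genes passed, with 0 listed genes higher and 3 lower, and 2 and 0 pathway genes, beside an all-gene median of 0.20. Slide row as a block left 716 genes, 1 listed gene higher (Irf1) and 1 lower (Isg15), and 6 and 0 pathway genes. Slide row 1 alone left 608 genes, 1 higher and 3 lower, and 5 and 0 pathway genes. With the replicate block 2176 genes passed, with 2 listed genes higher and 6 lower, and 8 pathway genes higher and 1 lower. The labels do not say whether the array numbers mark pairs, and they were not taken as pairs. Leaving out each array gave 1330 to 2760 genes, 1 to 2 listed genes higher and 3 to 6 lower, 3 to 13 pathway genes higher and 0 to 3 lower, and a listed median of -0.11 to -0.19. The listed median kept its sign in all settings.

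Among the listed genes, signs changed only for those that had not passed. Of the pathway genes, Irf2 had passed, yet its dimmer probe gave -0.13. Usp18 gave -0.0188 under normexp, -0.0404 under median scaling, -0.0081 under quantile normalization and -0.012 in the authors' deposited value table, against 0.42 within row 1. Ifnar1 gave -0.0023 under normexp, -0.0357 under median scaling, -0.0021 with the mean of probes, -0.0022 in the authors' deposited value table and -0.0451 with array weights. Herc6 gave 0.0559 under normexp and Ifi27 0.0116 under quantile normalization. With slide row as a block and within row 1, Ifit2 gave 0.0686, Ifi44 0.24, Oasl2 0.13 and Rtp4 0.22. Other probes gave 0.17 for Ddx58, 0.0275 for Oas1b, 0.17 for Stat2, -0.47 for Trim25 and 0.11 for Zbp1. With 1 array left out the ranges were -0.19 to 0.20 for Usp18, -0.0615 to 0.0705 for Ifnar1, -0.14 to 0.17 for Ifi44l, -0.11 to 0.0484 for Ifi27, -0.0572 to 0.28 for Parp14, -0.0421 to 0.19 for Oas2, -0.26 to 0.0076 for Ifi44, -0.23 to 0.0151 for Rtp4. The causes were not tested. Signal over background limited Oas1a and Oas1g.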
